A study of Mus musculus with 2 samples.

Results

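The nuclear genes of the respiratory chain are the genes on chromosomes in the nucleus that encode the subunits of complexes I to V. They were taken by symbol, as the rows for the subunit families Nduf (a, b, c, s and v), Sdh, Uqcr, Cyc1, Cox4 to Cox8 and Atp5, which gave 86 of the 32285 genes in the count tables. Of these, 36 belonged to complex I, 4 to complex II, 9 to complex III, 20 to complex IV and 17 to complex V. Ndufa4, Ndufa4l2 and Cox7a2l were counted with complex IV. All 86 had an entry in GENCODE M21 (GRCm38), where they lay on 19 chromosomes and 85 carried the same symbol. Ndufb1-ps is annotated there as a non-coding RNA of a bidirectional promoter, and was counted with complex I. The symbol rule does not take assembly factors, cytochrome c or the subunits encoded by mitochondrial DNA, which are given separately.

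The chain passes electrons from NADH (complex I) and succinate (complex II) through ubiquinone, complex III and cytochrome c to complex IV, which reduces oxygen, and complexes I, III and IV pump protons across the inner mitochondrial membrane. Complex V, the ATP synthase, lets the protons back and makes ATP. Most subunits are encoded in the nucleus, and the remainder, at the heart of every complex except II, by mitochondrial DNA. In the colon, absorptive colonocytes are known for oxidising butyrate, whereas stem and tumour cells are known for more glycolysis.

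Colorectal tumours of mice given azoxymethane and dextran sulphate sodium were dissociated and profiled as single cells in droplets, by a method that counts the 3′ ends of transcripts by unique molecular identifiers (UMIs). There was 1 library labelled WT and 1 labelled STK25 wKO, both from tumours with the same induction and each from a pool of fresh tumours, which leaves differences without a replicate check, and none was tested. The paper that used these data describes the mice as wild-type and as global knockouts of STK25. The labels give neither the strain, age, number of mice pooled nor the allele, and the series' design text names a sort on mCherry that the sample protocols do not describe. Stk25 itself stood at 1.18 UMIs per 10000 UMIs over all cells in the WT-labelled library and 1.27 in the wKO-labelled library (epithelial cells, 1.68 and 1.56), so the 3′ counts did not show its loss. Which exons the deletion removes was not given in the sources used here, and a 3′ tag outside them would not report it.

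After filtering, 12270 and 13883 cells remained, with a median of 1383 and 2091 UMIs each, and 230 barcodes were shared by the libraries. The cells formed 26 clusters, made without the respiratory chain genes and without mitochondrial genes among the variable genes, and clusters were named from marker genes, so that "epithelial cells" below means epithelial-like clusters, and likewise for the other classes. Levels are UMIs per 10000 UMIs of a class, and log2 ratios are wKO-labelled to WT-labelled. Levels and ratios are followed by 95% intervals that cover counting error only and say nothing of the spread between mice. The members held 949811 UMIs in the WT-labelled library and 2245641 in the wKO-labelled library. Of the 86 genes, 79 had at least 1000 UMIs over both libraries, and 7 had fewer, all but Ndufa4l2 tissue isoforms of complex IV.

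The summed level of the 86 genes was highest in epithelial cells in both libraries, at 303 UMIs per 10000 (interval 303 to 304) in the WT-labelled library and 404 (403 to 404) in the wKO-labelled library. That was 1.99 times the level of neutrophils in the former. The unnamed clusters, which had few UMIs per cell, stood at 272 and 292 and are left out of the orders that follow. In the WT-labelled library the order ran on through dendritic cells (177), the fibroblast class with pericytes or smooth muscle (170) and B cells (164). Endothelial cells (153), neutrophils (153) and T or NK cells (152) had overlapping intervals, and macrophages or monocytes (131) and plasma cells (69.8) followed. In the wKO-labelled library dendritic cells (254) again came next, then T or NK cells (225), and the fibroblast class (212) and B cells (211) overlapped. Endothelial cells (195), macrophages or monocytes (186), neutrophils (167) and plasma cells (124) closed that order. In plasma cells, immunoglobulin transcripts took 3848 and 4745 of every 10000 UMIs, which lowers all other levels there, and only 36 and 40 cells were in that class. Enteric glia (27 and 28 cells) and enteroendocrine cells (7 and 30) were too few to describe.

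**Figure D1:**
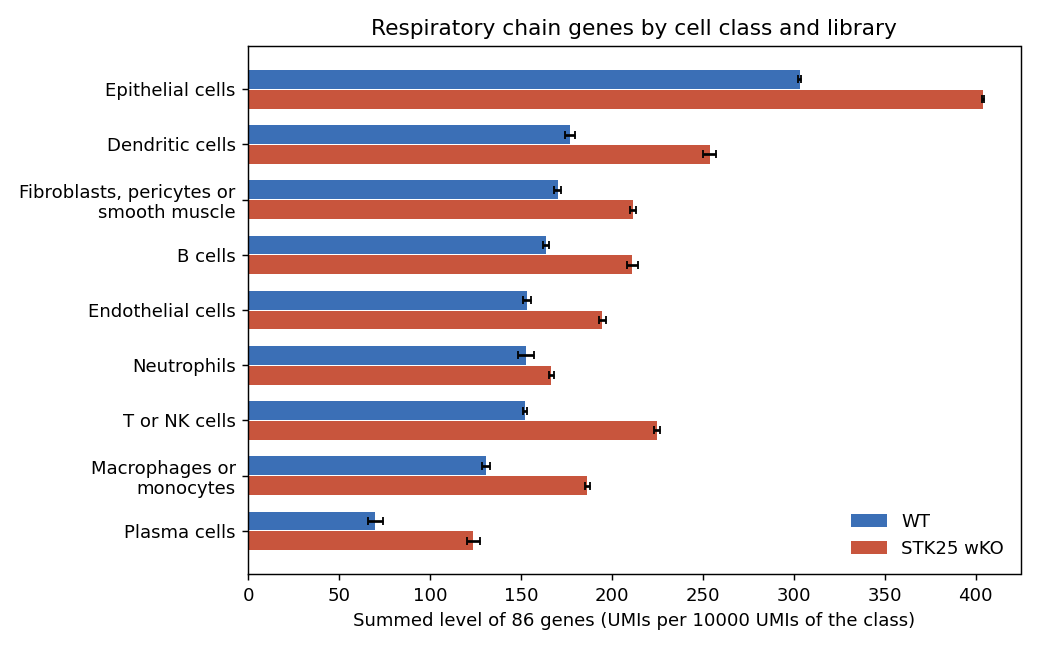
Bars give the summed level of the 86 respiratory chain genes in UMIs per 10000 UMIs of each class, for the WT-labelled (blue) and wKO-labelled (red) library, with 95% Poisson intervals for counting error. Epithelial cells stand highest, at 303 and 404, and in each of the 9 classes drawn the wKO-labelled bar is the longer.

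Most members also stood highest in epithelial cells when taken singly. Over the 9 classes with at least 200 cells and the 82 members with at least 200 UMIs, 78 members had their highest level, as the mean of both libraries, in epithelial cells. Of the remaining 4, Cox4i2 and Ndufa4l2 peaked in pericytes or smooth muscle, Cox6b2 in fibroblasts and Ndufb1-ps in dendritic cells. The lowest such mean fell in neutrophils for 41 members and in macrophages or monocytes for 24, but this order differed between the libraries. In the WT-labelled library the lowest class was macrophages or monocytes for 39 members and neutrophils for 19. In the wKO-labelled library it was neutrophils for 55 and macrophages or monocytes for 10. How many of all genes stand highest or lowest in these classes was not counted, so these counts do not set the members apart. For the median member, the highest class exceeded the lowest 2.50-fold. Cox7a2l, a relative of Cox7a that acts in supercomplexes, varied least, from 0.926 to 1.35 UMIs per 10000. Within epithelial cells, complexes IV and V each made up about equal shares of the members' UMIs, 31.0% and 31.8% in the WT-labelled library and 31.5% and 31.4% in the wKO-labelled library. Complex I gave 24.5% in both, complex III 10.9% and 10.8%, and complex II 1.85% and 1.75%.

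Depth and cell weighting entered these levels. An average over cells, in which each cell counts alike, put epithelial cells at 203 and 296 UMIs per 10000. The pooled values, in which deep cells weigh more, were 303 and 404. The unnamed clusters, pooled at 272 and 292, were given no such average. With epithelial RNA subtracted from the other classes (in proportion to their epithelial markers, which put the epithelial contribution at 9.90% to 25.5% of their UMIs), their levels came to between 99.1 and 180 UMIs per 10000. The lowest value after this subtraction was that of neutrophils in the wKO-labelled library.

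Between the libraries, the respiratory chain genes stood higher in the wKO-labelled library in all 7 classes compared. The log2 ratio of the summed level was 0.56 (0.54 to 0.57) in T or NK cells, 0.51 (0.49 to 0.54) in macrophages or monocytes and 0.41 (0.41 to 0.42) in epithelial cells. B cells gave 0.37 (0.34 to 0.40), endothelial cells 0.34 (0.32 to 0.37) and the fibroblast class 0.32 (0.30 to 0.33). Neutrophils gave the smallest ratio, 0.13 (0.08 to 0.17). The T or NK cells of the libraries were spread differently over 3 shared clusters. That led by Gm2682, Themis and Prkcq held 2584 of 3849 WT-labelled cells and 142 of 1419 wKO-labelled cells. That led by Il17a, Ctla4 and Tnfrsf9 held 1104 and 1090, and that led by Xcl1, Ccl5 and Cd7 held 161 and 187. Within the 3 T or NK clusters the ratio was 0.41, 0.49 and 0.49, below the pooled value and below that of macrophages or monocytes. The epithelial value pools clusters as well. In those of at least 30 cells in both libraries, the ratio ran from −0.04 (led by Htr4, Cftr and Esrrg) to 0.59 (goblet cells). The cluster led by Reg3b, Pycard and Birc5, which had the highest level, gave 0.14 and held 250 and 923 cells. The 5 complexes moved together: within epithelial cells their ratios lay between 0.34 for complex II and 0.44 for complex IV, and within T or NK cells between 0.47 for complex II and 0.60 for complex IV. In neutrophils the intervals of complex II (−0.06 to 0.67) and complex III (−0.08 to 0.18) held 0.

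The difference depended on the denominator. Ribosomal protein genes, which make up the cytosolic ribosome and are short and abundant like the members, were higher in the wKO-labelled library by 0.39 on the log2 scale in epithelial cells, 0.38 in T or NK cells, 0.60 in B cells and 0.59 in macrophages or monocytes. Per UMI of those genes, the members' ratio was 0.03 in epithelial cells, 0.18 in T or NK cells, −0.23 in B cells and −0.08 in macrophages or monocytes. The B cell value turned within clusters. In the cluster led by Bank1, Pax5 and Ebf1 the members' ratio per ribosomal UMI was 0.17, and in that led by Cd79a, Cd79b and Ms4a1, where ribosomal protein genes took 1711 and 1770 of every 10000 UMIs, it was 0.32. The latter cluster held 65 of 1598 B cells in the WT-labelled library and 211 of 657 in the wKO-labelled library. In the fibroblast class the ribosomal protein genes were near level (0.04) and the members kept a ratio of 0.27. In neutrophils the ribosomal protein genes were level over all cells (−0.01) and 0.21 higher in the single cluster that both libraries held. Malat1, a nuclear non-coding RNA, went the other way in each of the 7 classes compared. Its log2 ratios there ran from −0.78 in macrophages or monocytes to −0.23 in the fibroblast class. The part of these shifts in the members' ratio was not tested.

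Neutrophils in the wKO-labelled library included a cluster of 310 cells led by Ngp, Retnlg and Camp that had no counterpart in the WT-labelled library, and its summed level was 120 UMIs per 10000. Without it, the neutrophil log2 ratio was 0.31 (levels 153 and 189). With that cluster kept, the neutrophil ratio was 0.13 in the main setting, −0.03 with doublets removed and −0.13 with epithelial RNA subtracted. Neither step was combined with leaving the cluster out. The direction in neutrophils with that cluster kept therefore depends on the processing.

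The summed markers of epithelial cells and of neutrophils were also higher in the wKO-labelled library in other classes. Whether these counts are RNA from other cells was not tested. All 12 epithelial markers were higher in the wKO-labelled library in T or NK cells, with a summed level of 25.8 against 36.4 UMIs per 10000, and in macrophages or monocytes (15.6 against 21.5) and the fibroblast class (16.6 against 29.4). In B cells 9 of 12 were higher (36.4 against 46.5), in endothelial cells 9 of 12 (17.7 against 22.6) and in neutrophils 10 of 12 (35.7 against 40.4). None of the epithelial markers was at 0 in any of these classes. Of the 10 neutrophil markers, 6 to 10 were higher in the wKO-labelled library in each class outside neutrophils. They summed to between 1.10 and 7.16 UMIs per 10000 in the WT-labelled library and to between 5.99 and 20.0 in the wKO-labelled library, and Ngp was at 0 in the former in all 6 of those classes. Ly6g, which is on the neutrophil list, was also a leading gene of an epithelial cluster at resolution 2. After subtraction of epithelial RNA the members' log2 ratio was 0.56 in T or NK cells, 0.50 in macrophages or monocytes and 0.30 in endothelial cells, but 0.25 in B cells and 0.18 in the fibroblast class.

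Single members followed the sum. A member was counted as measured in a class with at least 50 UMIs over both libraries. In epithelial cells 80 of 82 measured members were higher in the wKO-labelled library, where 37.1% of 14676 genes were. Their median log2 ratio was 0.40, against −0.14 over all genes. Few members were far up: 6 passed a log2 ratio of 0.5, which 6.34% of genes passed, and none was as far down, as 17.4% of genes were. Most members were thus higher by a log2 ratio under 0.5. These epithelial ratios, and those of single genes below, are over pooled cells, whose spread over clusters differed between the libraries.

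The spread of T or NK cells over clusters differed between the libraries, as given above. In these cells 77 of 79 members were higher (49.7% of genes), 49 were past 0.5 (19.3% of genes) and none was past −0.5 (21.5%). Their median was 0.54, against −0.00372 over all genes. Macrophages or monocytes had a median of 0.50, against −0.11 over all genes, with 74 of 78 higher (43.4%) and 37 past 0.5 (16.7%), again with none past −0.5 (25.9%). In B cells 71 of 77 members were higher (48.9%), 11 of them past 0.5 (14.7%), and none was past −0.5 (17.1%). Endothelial cells gave 76 of 78 higher (50.3%), 14 past 0.5 (12%) and none past −0.5 (11.1%). The fibroblast class gave 76 of 81 higher (51.2%), 5 past 0.5 (11.8%) and none past −0.5 (8.85%). In neutrophils 58 of 78 were higher (42.3%), but only 7 were past 0.5, fewer than the 20.1% of all genes, and 1, Uqcrc2, was past −0.5 (30.5%). Of the 77 members measured in all 7 classes, 51 were higher in each of them, as were 15.2% of 5586 genes, and none was lower in each.

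**Figure D2:**
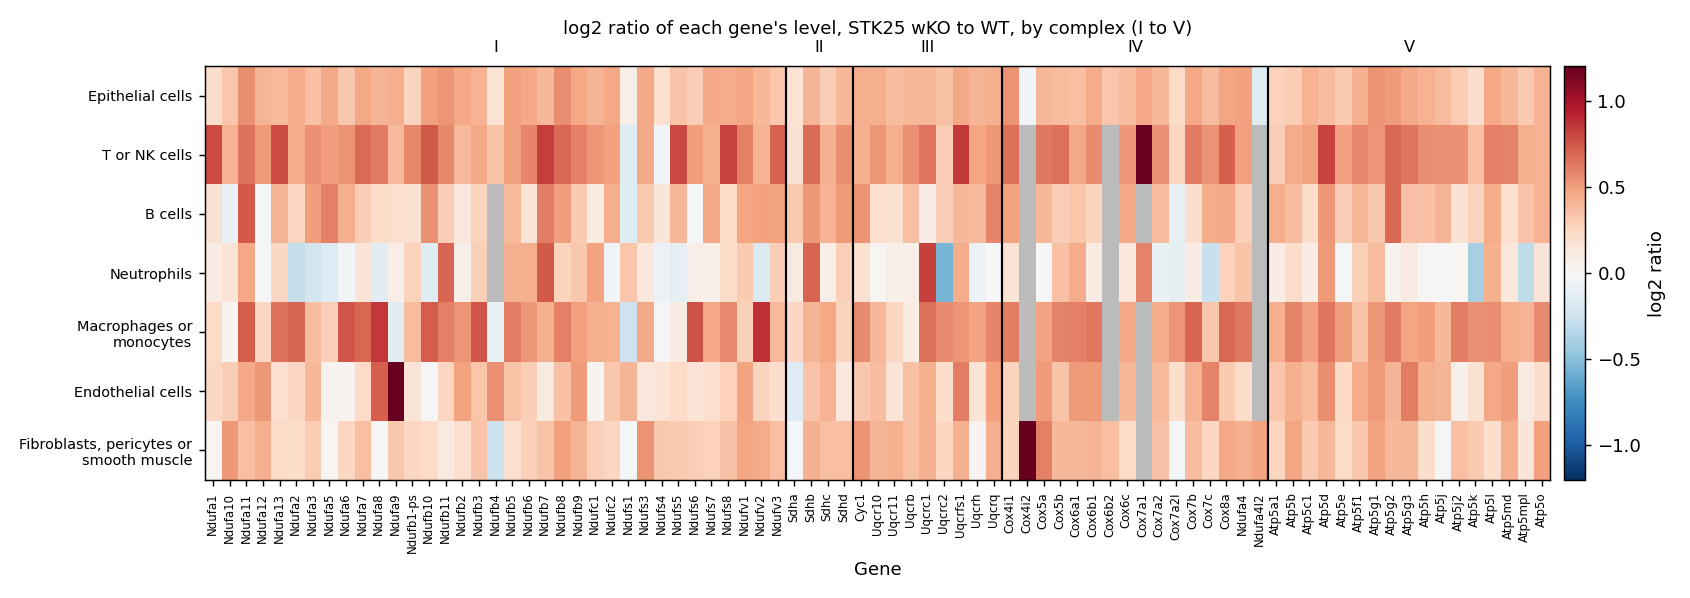
Each column is a member with at least 50 UMIs in at least 1 class, 1 gene left out, grouped by complex, and each row a class. Colour gives the log2 ratio of the gene's level, wKO-labelled to WT-labelled (red higher, blue lower, scale ending at 1.2 in either direction, grey under 50 UMIs). Nearly all of the row of epithelial cells is red (80 of 82 members), and the row of neutrophils is mixed (58 of 78).

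The span of a gene went with its ratio. Over all genes in epithelial cells the median log2 ratio was 0.18 for genes under 5 kb, 0.03 from 5 to 20 kb, −0.22 from 20 to 100 kb and −0.47 above 100 kb, and the same order held in the other 6 classes. The members are short genes, with a median span of 7.20 kb. At matched span the members in epithelial cells stayed above all genes: 27 members under 5 kb had a median of 0.40, 45 from 5 to 20 kb had 0.41 and 9 from 20 to 100 kb had 0.35. In the other classes the bins differed. Under 5 kb, which held 24 to 26 members, those in T or NK cells, at 0.55, stood close to all genes of that span (0.48), and so they did in macrophages or monocytes (0.52 against 0.46) and endothelial cells (0.32 against 0.29), whereas those in B cells (0.35 against 0.43) and neutrophils (0.07 against 0.21) stood below. From 5 to 20 kb, which held 43 to 45 members, the members stood above all genes in T or NK cells (0.56 against 0.22), macrophages or monocytes (0.52 against 0.18), B cells (0.39 against 0.24), endothelial cells (0.34 against 0.19) and neutrophils (0.16 against 0.10). In the fibroblast class they stood above in both bins (0.35 against 0.25, and 0.34 against 0.16). Per UMI of genes under 20 kb, the members' summed log2 ratio was 0.22 in epithelial cells, 0.27 in T or NK cells, 0.13 in B cells and −0.24 in neutrophils.

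**Figure D3:**
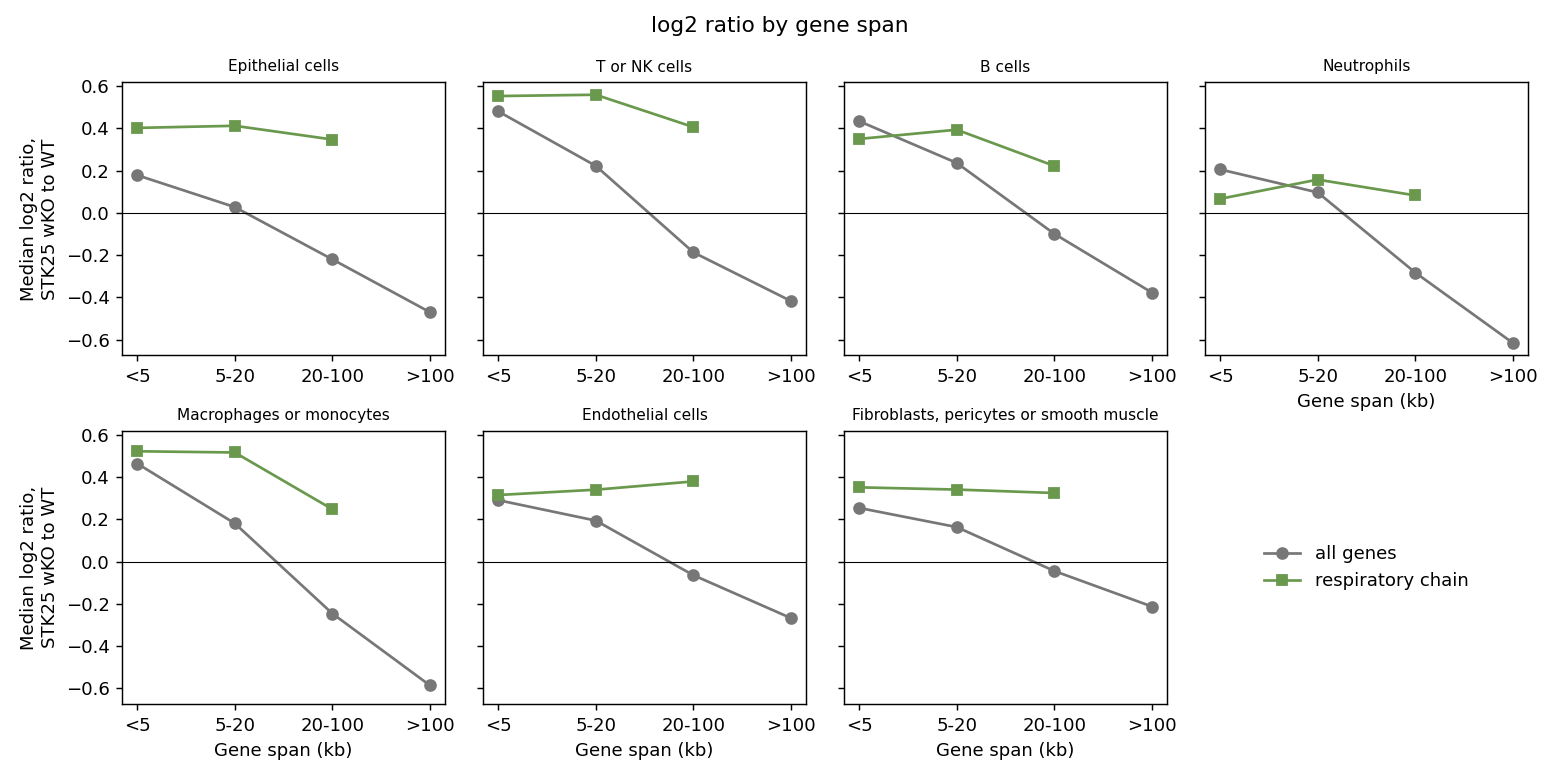
Each panel is a class. The median log2 ratio, wKO-labelled to WT-labelled, is plotted against gene span in kb for all genes (grey) and for the respiratory chain genes (green, where a bin held at least 5 members). All genes fall from left to right in each panel, and in B cells and neutrophils the green line starts below the grey line.

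Among the core subunits of complex I, Ndufv1, the flavoprotein that takes electrons from NADH, stood at 1.17 UMIs per 10000 in epithelial cells of the WT-labelled library and 1.63 in the wKO-labelled library, a log2 ratio of 0.48 (0.41 to 0.54). Ndufs1, the largest iron-sulfur subunit, differed least of all members with at least 200 UMIs there. Its levels were 0.552 and 0.583 and its log2 ratio 0.08, with an interval that held 0 (−0.02 to 0.18), and it was lower in the wKO-labelled library in 4 of the 7 classes. Of the 7 core subunits, all were higher in epithelial cells and 6 in T or NK cells.

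The accessory subunits, which surround the core and are needed to build or hold it, were all higher in epithelial cells (29 of 29, median log2 ratio 0.41). Ndufa6 was the most abundant complex I gene there, with 5.56 and 6.96 UMIs per 10000 and a log2 ratio of 0.32 (0.29 to 0.35), followed by Ndufb9 with 4.26 and 5.86 and 0.46 (0.43 to 0.49). Ndufb8 and Ndufa11 had the largest ratios of any member in epithelial cells. The levels of Ndufb8 were 2.86 and 4.21 (log2 ratio 0.56, 0.52 to 0.60) and those of Ndufa11 2.53 and 3.72 (0.55, 0.51 to 0.60). The interval of Ndufa11 also lay above 0 in 5 of the other 6 classes, all but neutrophils. At the low end, Ndufs4 gave 1.86 and 2.13 (0.20, 0.15 to 0.25) and was at −0.03 in T or NK cells, and Ndufb4 gave 0.243 and 0.273 (0.17, 0.02 to 0.31). Ndufb4 was the rarest complex I gene. Several members, Ndufb4 and the c subunit genes of complex V among them, have near-identical copies in the genome with which reads may be shared, so their levels are uncertain.

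Complex II, which also works in the tricarboxylic acid cycle, was the smallest part of the members' UMIs. Sdhb, its iron-sulfur subunit, stood at 1.71 and 2.27 UMIs per 10000 in epithelial cells (log2 ratio 0.41, 0.36 to 0.46) and Sdhd, a membrane anchor, at 1.64 and 2.17 (0.40, 0.34 to 0.45). Sdha, the flavoprotein that oxidises succinate, gave 1.13 and 1.27 (0.17, 0.10 to 0.24) and was among the 4 smallest ratios of the members. Its ratio was −0.15 in endothelial cells and −0.02 in the fibroblast class, with intervals that held 0. So the flavoprotein of complex II stood below the other subunits of its complex, while that of complex I (Ndufv1) stood with the rest.

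In complex III, Uqcrh, the hinge protein, and Uqcrq, subunit 8, held the most UMIs. Uqcrh stood at 5.79 and 7.70 UMIs per 10000 in epithelial cells (log2 ratio 0.41, 0.38 to 0.44) and Uqcrq at 4.66 and 6.25 (0.42, 0.39 to 0.46). Both electron carriers of the complex encoded in the nucleus, Cyc1 (cytochrome c1) and Uqcrfs1 (the Rieske iron-sulfur protein), were higher in all 7 classes, from 0.18 in neutrophils to 0.56 in macrophages or monocytes for Cyc1 and from 0.40 in B cells to 0.85 in T or NK cells for Uqcrfs1. All 9 genes were higher in 6 of the classes. In neutrophils 7 of 9 were higher. Of the 2 core proteins, Uqcrc1 gave 0.82 there and Uqcrc2 −0.56, the latter with an interval that held 0. These neutrophil values include the cluster that the WT-labelled library lacks.

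Complex IV held the most abundant members. Cox8a stood at 15.5 and 21.5 UMIs per 10000 in epithelial cells (log2 ratio 0.48, 0.46 to 0.49), with a UMI in 81.6% and 89.2% of cells, and Cox4i1 at 13.9 and 20.1 (0.54, 0.52 to 0.56). The 10 general forms, which most tissues express, were all higher in epithelial cells, T or NK cells, B cells, macrophages or monocytes, endothelial cells and the fibroblast class. In neutrophils Cox7c was lower, with a log2 ratio of −0.27, with an interval below 0 (−0.52 to −0.01), whereas its ratio lay between 0.25 and 0.59 in the other 6 classes. Ndufa4, first assigned to complex I and now placed in complex IV, gave 0.49 in epithelial cells, close to Cox8a.

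In complex V, Atp5g3, one of 3 genes for the c subunit of the rotating ring, held the most UMIs. Its levels in epithelial cells were 14.5 and 19.9 UMIs per 10000 (log2 ratio 0.45, 0.43 to 0.47). The other c subunit genes, which encode the same mature protein, stood at 5.10 and 7.39 for Atp5g1 (0.54, 0.51 to 0.57) and 5.16 and 7.36 for Atp5g2 (0.51, 0.48 to 0.54). The ring genes thus had higher ratios than the catalytic F1 head, where Atp5a1 (the alpha subunit) gave 0.28 (0.25 to 0.31) and Atp5b (the beta subunit) 0.31 (0.28 to 0.34). Atp5d, the delta subunit, gave 7.34 and 9.46 and a log2 ratio of 0.37 in epithelial cells, and 0.81 in T or NK cells. The e subunit gene Atp5k, in the membrane part, was among the lower ratios at 0.21, and at −0.40 in neutrophils, where the interval held 0.

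Across clusters, the complexes moved together. Over the 22 clusters with at least 30 cells in the WT-labelled library and 24 in the wKO-labelled library, the log levels of any pair of complexes correlated with r between 0.91 and 0.99. These clusters share a library and differ in depth and cell type, and the values are descriptive. The summed level correlated with the level of ribosomal protein genes at r of 0.54 and 0.68, and with Malat1 at −0.69 and −0.39. The sum of the 13 subunits of mitochondrial DNA followed more loosely, at 0.51 and 0.37.

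Epithelial clusters differed more from each other than the libraries did. The cluster led by Reg3b, Pycard and Birc5 stood highest at 492 and 541 UMIs per 10000, with 250 and 923 cells and median depths of 14678 and 14735 UMIs. Birc5 is a gene of dividing cells, but it does not stand for the whole cluster. At resolution 2, Birc5 was a leading gene of a cluster of 152 and 430 cells, and Reg3b and Pycard of another of 103 and 475. Among epithelial clusters of at least 30 cells in both libraries, that led by Htr4, Cftr and Esrrg stood lowest at 177 and 172, and it was the only 1 of the 22 clusters with at least 30 cells in both libraries that was lower in the wKO-labelled library (log2 ratio −0.04, −0.06 to −0.03). There ribosomal protein genes were also near level (−0.03) and Malat1 was higher (0.16). Among the epithelial clusters of at least 30 cells in both libraries, goblet cells, which secrete mucus, had the largest ratio, 0.59 (261 and 392). At resolution 2, goblet cells formed a deeper cluster (176 and 474 cells, median 4583 and 4274.5 UMIs) and a shallower 1 (103 and 96 cells, median 996 and 1038.5). Their make-up thus differed between the libraries. Tuft cells, which are chemosensory, had a ratio of 0.04 with an interval that held 0 (323 and 332, from 32 and 42 cells). The cluster led by Saa1, Ly6m and Clca4b gave 0.29. With the 6 epithelial clusters weighted alike the epithelial log2 ratio was 0.23 (levels 299 and 351), against 0.41 in the pooled cells, in which the Reg3b cluster made up more of the wKO-labelled library.

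**Figure D4:**
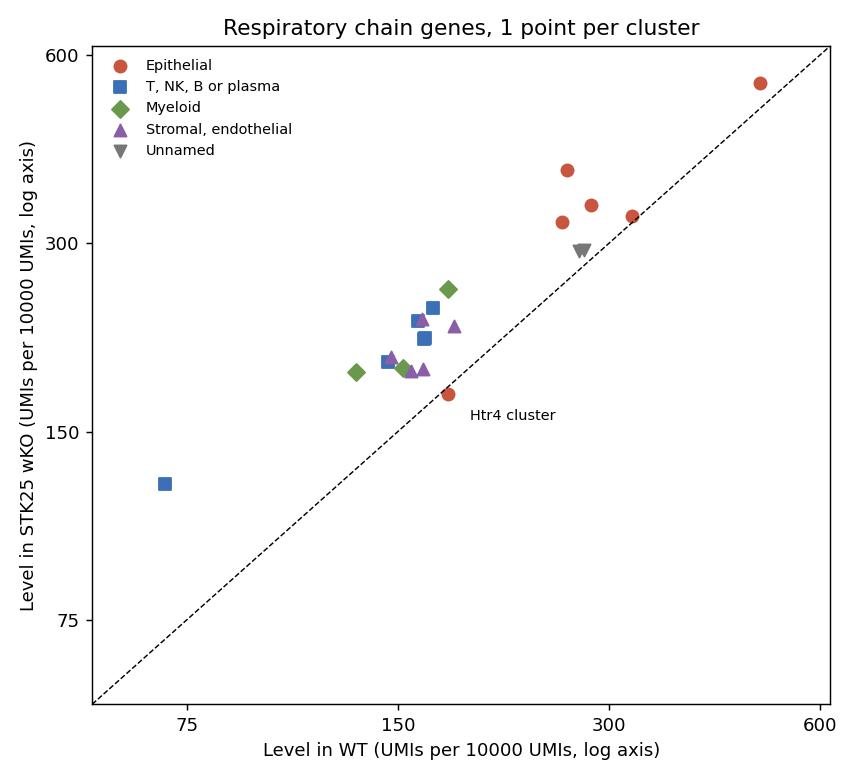
Each point is 1 of the 22 clusters with at least 30 cells in both libraries, with its summed level of the 86 genes in the WT-labelled library (horizontal, log axis) and in the wKO-labelled library (vertical, log axis), in UMIs per 10000 UMIs. Shape and colour give the kind of cell, and the dashed line marks equal levels. All points lie above the line except that of the Htr4 cluster, at 177 and 172.

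Some members have isoforms made in few tissues, and these stood apart by class. Ndufa4l2, a relative of Ndufa4 known as a target of hypoxia signalling and a pericyte gene, stood at 2.46 and 2.48 UMIs per 10000 in pericytes or smooth muscle, from 62 and 130 UMIs. A UMI was found in 27.3% and 29.7% of these cells at median depths of 2120 and 2126 UMIs, and in 0.457% and 0.627% of fibroblasts at median depths of 2238 and 2551. Its level in fibroblasts was 0.0215 and 0.0338, and the libraries did not differ beyond counting error in pericytes or smooth muscle (log2 ratio 0.02, −0.43 to 0.48). That class, also used for Cox4i2 below, was not split into pericytes and smooth muscle, so their shares may differ between the libraries.

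Cox4i2, the alternative form of Cox4i1 that is known from lung and hypoxic cells, likewise had its highest level in pericytes or smooth muscle. Of its 89 and 232 UMIs over all cells, 22 and 43 lay in the far more numerous epithelial cells, at 0.00991 and 0.00968 UMIs per 10000. Its levels in pericytes or smooth muscle were 1.50 and 2.84 UMIs per 10000, from 38 and 149 UMIs, which is a log2 ratio of 0.92 (0.40 to 1.47). A UMI was found in 15.9% and 31.6% of these cells, and in 4.29% and 17.3% with each cell thinned to 1000 UMIs (70 and 139 cells). In fibroblasts the shares were 0.610% and 0.125%. In the same cells the general form Cox4i1 remained the more abundant isoform, as the level of Cox4i2 was far below that of Cox4i1 (8.43 and 10.9 UMIs per 10000).

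Cox6b2, known from testis, had its highest level in fibroblasts, at 0.344 and 0.454 UMIs per 10000 (log2 ratio 0.40, −0.05 to 0.86), against 0.0351 and 0.0441 in epithelial cells. Cox7a1, the heart and muscle form of Cox7a, was not highest in muscle-type cells: it stood at 0.225 and 0.308 in epithelial cells (0.45, 0.30 to 0.60). In T or NK cells it stood at 0.0697 and 0.194, a log2 ratio of 1.47 (0.88 to 2.08). The muscle forms Cox6a2 and Cox8b and the testis forms Cox7b2 and Cox8c were at or near 0. Cox6a2 had 1 and 8 UMIs, Cox8b 19 and 16, Cox7b2 1 and 1, and Cox8c none in either library. The levels of Cox6a1, Cox6b1, Cox7a2, Cox7b and Cox8a in epithelial cells lay between 3.98 (Cox7b) and 15.5 (Cox8a) in the WT-labelled library.

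**Figure D5:**
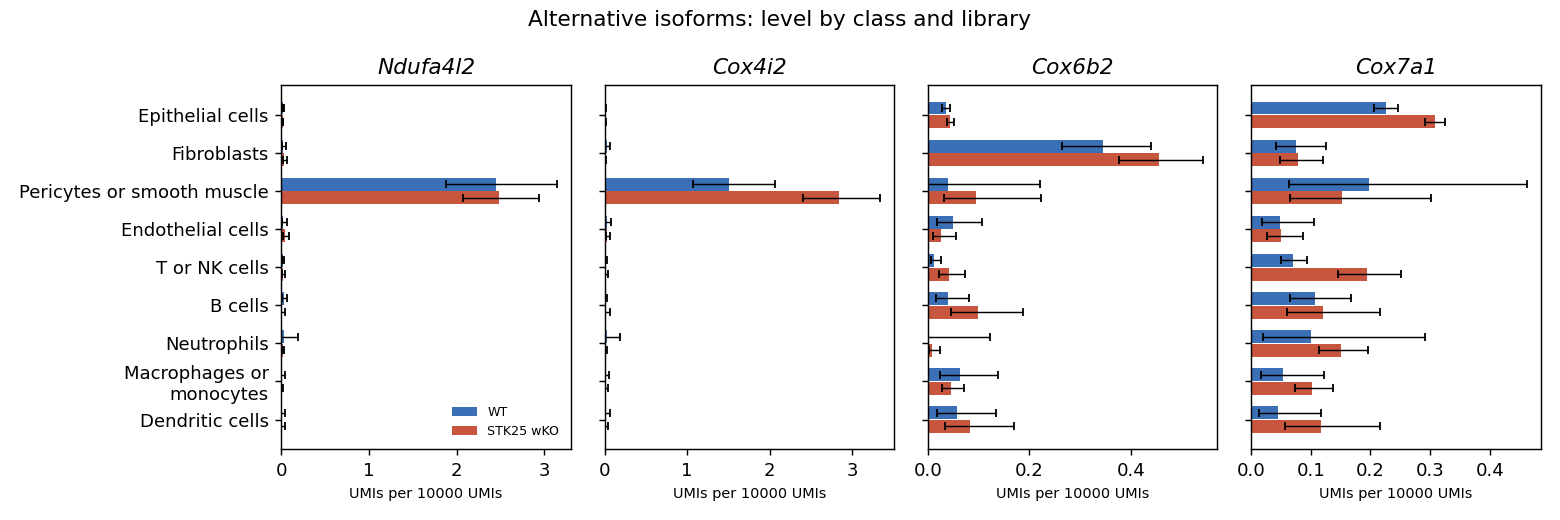
Bars give the level of 4 isoforms or relatives in UMIs per 10000 UMIs of each class, WT-labelled (blue) and wKO-labelled (red), with 95% Poisson intervals, and each panel has its own scale. Ndufa4l2 and Cox4i2 stand out in pericytes or smooth muscle, Cox6b2 in fibroblasts (0.344 and 0.454) and Cox7a1 in epithelial cells (0.225 and 0.308).

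The subunits of the same complexes that mitochondrial DNA encodes did not follow the nuclear ones in the pooled classes. None of the 13 was higher in the wKO-labelled library in pooled epithelial cells, T or NK cells, B cells or macrophages or monocytes, and in epithelial cells their median log2 ratio was −0.39. mt-Co1 stood at 113 and 95.1 UMIs per 10000 in epithelial cells (log2 ratio −0.24) and mt-Co2 at 65.8 and 51.9 (−0.34). In T or NK cells mt-Co1 was level (80.8 and 80.5). In endothelial cells 11 of 13 were higher, with a summed log2 ratio of 0.12. Within clusters the summed ratio of the 13 did not always keep the sign of the pooled value. It was 0.18, 0.23 and 0.32 in the 3 T or NK clusters, against −0.12 in the pooled cells, and −0.10 and 0.44 in the 2 B cell clusters, against −0.21. In the 6 epithelial clusters of at least 30 cells in both libraries it lay between −0.33 and 0.21. Cells with over 25% mitochondrial UMIs were removed from both libraries, which limits these genes directly.

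Other genes of the pathway moved less evenly than the members. Their counts stand beside shares of all genes higher of 37.1% in epithelial cells, 49.7% in T or NK cells, 48.9% in B cells and 42.3% in neutrophils. Of 48 assembly factors, which build the complexes, 39 of 47 measured were higher in epithelial cells (median log2 ratio 0.25). Coa3 and Cox17, both needed to build complex IV, gave 0.43 and 0.26. In neutrophils 7 of 25 were higher. Of the 17 genes of the tricarboxylic acid cycle, 14 were higher in epithelial cells (median 0.18), with Mdh2, which oxidises malate, at 0.35 and Suclg1, of succinyl-CoA ligase, at 0.38, and 8 of 17 were higher in B cells. Of the 18 electron carriers and other entry points, 14 were higher in epithelial cells (median 0.16), Cycs (cytochrome c) at 0.21 and Ndufab1, the acyl carrier protein that is also a complex I subunit, at 0.43.

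Transport across the inner membrane had the summed log2 ratio nearest to that of the members in 5 classes, but not in neutrophils or the fibroblast class, where the tricarboxylic acid cycle was nearer. Of its 11 measured genes, 10 were higher in epithelial cells (median log2 ratio 0.36) and all 11 in T or NK cells and in B cells (medians 0.54 and 0.49). Slc25a5, the ADP/ATP carrier, gave 7.26 and 9.58 UMIs per 10000 in epithelial cells (0.40), and Slc25a3, the phosphate carrier, 6.84 and 9.07 (0.41). Of the 16 regulators of mitochondrial biogenesis, 4 were higher and 12 lower in epithelial cells (median −0.26, against −0.14 over all genes). These regulators were not matched by gene span, which went with the ratio over all genes. Hif1a, a regulator of the response to low oxygen, gave −0.54 in epithelial cells and 0.54 in T or NK cells, and Yy1 gave −0.19 and −0.33. Nrf1, a transcription factor of many nuclear genes for mitochondrial proteins, gave −0.55 in epithelial cells and Gabpa, an ETS factor, −0.42, and this pair was picked after its values were seen.

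Because the members moved together, their promoters were searched for 2 short motifs known from nuclear genes of mitochondrial proteins, GCATGCGC (the inner part of the NRF1 palindrome) and CCGGAAG (an ETS site, as GABPA binds), on both strands of the 250 bases before a transcript start in RefSeq (GRCm38.p6). A promoter window was held for 67 of the 86 members. GCATGCGC was in at least 1 window of 8 members (11.9%) and CCGGAAG in 12 (17.9%), while 2.56% and 7.83% of 27025 genes held them. Both motifs were in the windows of 2 members, Cox6a1 and Atp5l. A match is a description of the letters and not a bound site, and was not related to the ratios.

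One promoter of each complex is shown as an example, that of the member with both motifs or otherwise 1 of them that had the most UMIs in epithelial cells. The window of Ndufa6 (complex I) was chr15:82354292-82354541 on the minus strand. The window of Sdhb (complex II) was chr4:140961021-140961270 on the plus strand. The window of Uqcrh (complex III) was chr4:116075071-116075320 on the minus strand. The window of Cox6a1 (complex IV) was chr5:115348959-115349208 on the minus strand. The window of Atp5l (complex V) was chr9:44920743-44920992 on the minus strand. Each is written 5′ to 3′ along the gene's strand and ends at the base before the start, with the motifs, on either strand, in capitals.
Ndufa6: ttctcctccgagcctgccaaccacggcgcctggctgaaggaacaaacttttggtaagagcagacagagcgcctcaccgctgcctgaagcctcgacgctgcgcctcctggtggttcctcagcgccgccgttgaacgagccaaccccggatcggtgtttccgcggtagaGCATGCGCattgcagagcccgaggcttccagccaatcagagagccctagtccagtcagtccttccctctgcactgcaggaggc
Sdhb: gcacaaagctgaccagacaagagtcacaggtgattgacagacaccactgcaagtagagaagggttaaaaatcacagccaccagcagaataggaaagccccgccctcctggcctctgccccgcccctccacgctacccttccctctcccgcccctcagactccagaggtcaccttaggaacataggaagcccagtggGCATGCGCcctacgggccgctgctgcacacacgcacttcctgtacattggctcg
Uqcrh: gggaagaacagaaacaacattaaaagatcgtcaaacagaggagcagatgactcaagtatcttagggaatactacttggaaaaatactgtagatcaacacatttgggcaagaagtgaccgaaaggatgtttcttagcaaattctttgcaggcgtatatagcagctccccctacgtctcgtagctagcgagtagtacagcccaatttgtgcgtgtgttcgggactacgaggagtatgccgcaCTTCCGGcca
Cox6a1: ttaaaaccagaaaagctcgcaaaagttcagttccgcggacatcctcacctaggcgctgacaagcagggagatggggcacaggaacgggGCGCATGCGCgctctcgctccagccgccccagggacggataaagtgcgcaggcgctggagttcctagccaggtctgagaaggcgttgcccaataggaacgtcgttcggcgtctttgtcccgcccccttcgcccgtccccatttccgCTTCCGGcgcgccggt
Atp5l: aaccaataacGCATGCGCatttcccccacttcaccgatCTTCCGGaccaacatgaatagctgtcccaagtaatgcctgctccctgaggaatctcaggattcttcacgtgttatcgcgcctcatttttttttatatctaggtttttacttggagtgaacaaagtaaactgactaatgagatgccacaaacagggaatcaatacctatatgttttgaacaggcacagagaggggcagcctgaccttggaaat

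In these 5 windows the motifs lay at different distances from the start. The GCATGCGC match began 83 bases before the start in Ndufa6 and 54 in Sdhb, and the CCGGAAG match, read on the opposite strand, began 10 bases before it in Uqcrh. In Cox6a1 2 overlapping GCATGCGC matches on opposite strands, which together spell the palindrome, began 162 and 160 bases before the start and a CCGGAAG match 16 bases before it. In Atp5l the matches began 240 and 212 bases before it. The epithelial log2 ratios of these genes were 0.32 for Ndufa6, 0.41 for Sdhb, 0.41 for Uqcrh, 0.36 for Cox6a1 and 0.47 for Atp5l, all within the range of the members.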

How the data were processed

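For each of the 2 libraries the authors deposited a matrix of raw UMI counts from 10x Genomics 3′ reads aligned to mm10. The submitters' processing notes name Cell Ranger and Seurat, and the kit version was not given beyond v2 or v3. The values were whole numbers, with at least 500 UMIs in every barcode. Counts are not divided by gene length, since each UMI marks 1 transcript's 3′ end.

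Barcodes under 200 genes or over 25% mitochondrial UMIs were dropped. Clusters were found with the Leiden method (resolution 1) on a graph of 20 neighbours in 30 principal components of the 2000 most variable genes, after each cell was scaled to 10000 UMIs and log-transformed (Python 3.11.15, scanpy 1.11.5, leidenalg 0.10.2, igraph 0.11.9, numpy 2.4.6, scipy 1.17.1, pandas 2.3.3, matplotlib 3.10.9, seed 0). Both libraries entered 1 clustering, with no batch correction. Clusters were named from marker lists, and clusters 1 and 2, with few UMIs per cell, stayed unnamed (2370 and 2686 cells, summed level 272 and 292 UMIs per 10000). With a stricter cell filter, a cluster led by Gphn, Cmss1 and Hist1h1b (632 and 1110 cells) was named epithelial. Doublets were kept. A few single-gene values are not reported here. Scrublet's automatic threshold called 0 cells in either library, and the alternative without doublets removed the 1204 and 1542 cells with the highest scores.

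UMIs were summed per class and library, with exact Poisson intervals for levels, exact conditional binomial intervals for ratios and a level of 95%. Shares of cells cover counting error only as well. With 1 library a group no test was made. A gene entered a class's counts with at least 50 UMIs over both libraries, and a log2 ratio of 0.5 in size was the fold used. Fold steps were tested on simulated counts with known ratios.

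The members and the marker, pathway and isoform lists were chosen with earlier results of these data known, and so was the rule for named genes. It takes the 2 members with most UMIs in epithelial cells per complex, the 4 largest and 4 smallest ratios there, the 5 with the widest range over classes, the listed isoforms and the 2 most abundant genes of each pathway list. Members named beyond it were chosen for their role or after their values were seen. Gene spans came from GENCODE M21 and promoter windows from RefSeq, and 84 of 86 members matched a RefSeq gene.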

Additional observations from a re-analysis of the deposited data

Results flagged for a closer look

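The summed level of the respiratory chain genes was higher in the wKO-labelled library in 20 clusters with an interval above 0, and lower in 1, the epithelial cluster led by Htr4, Cftr and Esrrg, with a log2 ratio of −0.042. This difference between clusters was not tested.

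Cox7c, a general form of complex IV, had a log2 ratio of −0.27 in neutrophils, with an interval below 0, and intervals above 0 in the other 6 classes. The difference was not tested. Without the neutrophil cluster that the WT-labelled library lacks, the summed neutrophil ratio of all members was 0.31.

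The 13 subunits encoded by mitochondrial DNA, summed, had a log2 ratio of 0.12 in endothelial cells and intervals below 0 in 5 classes. T or NK cells are 1 of these, although the sum was higher in the wKO-labelled library in each of the 3 T or NK clusters (0.18, 0.23 and 0.32), and so are neutrophils, at 0.13 in the cluster that both libraries held. The electron carriers and other entry points, summed, had −0.19 in neutrophils and intervals above 0 in 5 classes. Neither difference was tested.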

How the results depend on the processing

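Over 14 alternatives, the summed log2 ratio was above 0 in 92 of 97 values. In neutrophils, with the cluster that the WT-labelled library lacks kept, it was −0.031 with doublets removed and −0.13 with epithelial RNA subtracted. Per UMIs of genes under 20 kb it was −0.24 in the same class. Per UMI of ribosomal protein genes it was −0.23 in B cells (0.17 and 0.32 within the 2 B cell clusters, whose shares of cells differ between the libraries) and −0.078 in macrophages or monocytes. The cause was not tested. These denominators, the subtraction and the omission of small clusters were chosen after seeing the data.

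In epithelial cells the ratio was 0.37 with a stricter filter (500 genes or more, mitochondrial UMIs up to 10%), 0.40 without doublets, 0.45 per UMIs without mitochondrial and ribosomal protein genes, 0.54 as a mean over cells, 0.57 with each cell thinned to 1000 UMIs, 0.23 with clusters weighted alike, 0.025 per ribosomal protein UMI and 0.22 per UMIs of genes under 20 kb. In the same order, where the value left the main interval, T or NK cells gave 0.58 (stricter filter), 0.61 (without mitochondrial and ribosomal protein genes), 0.50 (mean over cells), 0.54 (thinned), 0.47 (clusters alike), 0.18 (ribosomal) and 0.27 (short genes). B cells gave 0.41, 0.44 (doublets removed, and thinned), 0.43, 0.25 (epithelial RNA subtracted) and 0.13 (short genes). Neutrophils gave 0.22 (stricter filter, and thinned), 0.18 (resolution 2) and 0.31 (clusters alike, and without the cluster that 1 library lacks).

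Macrophages or monocytes gave 0.55 (no cell filter), 0.56 (resolution 2, and without mitochondrial and ribosomal protein genes), 0.48 (mean over cells) and 0.19 (short genes). Endothelial cells gave 0.37 (stricter filter), 0.38 (no filter), 0.32 (resolution 0.5), 0.39 (members allowed among the variable genes), 0.31 (doublets removed), 0.15 (ribosomal), 0.30 (subtraction) and 0.20 (short genes). The fibroblast class gave 0.34 (resolution 0.5), 0.29 (doublets removed), 0.28 (mean over cells), 0.27 (thinned, and ribosomal), 0.35 (clusters alike), 0.18 (subtraction) and 0.20 (short genes).

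Medians over members with at least 10 or 200 UMIs stayed within the width of the main intervals. Epithelial cells were highest in 20 of 22 orders of the 7 classes compared, and in the other 2 the subtraction gave them no value. The unnamed clusters were not in these orders. One library a condition limits all of this: pools of mice, kits, depth and dissociation cannot be told apart from the genotype.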
